A study of Arabidopsis thaliana with 13 samples.

Results

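The PIF family genes of Arabidopsis thaliana were examined as places where CRY2, PIF4 and PIF5 bound chromatin. The family was taken as 7 genes, PIF1 (AT2G20180), PIF3 (AT1G09530), PIF4 (AT2G43010), PIF5 (AT3G59060), PIF6 (AT3G62090), PIF7 (AT5G61270) and PIF8 (AT4G00050), out of 27444 nuclear protein-coding genes. A binding region (peak) was counted for a gene when it overlapped the gene body or lay within 3 kb of it, and 30 peaks met this rule. All libraries came from whole seedlings of ecotype Columbia, 5 days old after continuous white light and exposed to low blue light for 16 h, and each line carried a FLAG-tagged transgene. The CRY2 line carried 3xFlag-6xHis-CRY2 behind the UBQ10 promoter, the PIF4 line PIF4-3xFlag-6xHis, and the PIF5 line PIF5-Flash with 9xMyc, 6xHis and 3xFlag. The sources used here do not give the promoters of the PIF transgenes, or say whether the endogenous genes were intact. CRY2 had 2 anti-FLAG and 2 mock IgG libraries, PIF4 had 3 and 2, and PIF5 had 2 and 2. The CRY2 precipitation started from 18 g of material and used an extra cross-linker, and those of the PIFs started from 2 g and used none, so CRY2 and PIF values also differ by protocol.

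PHYTOCHROME INTERACTING FACTORs are basic helix-loop-helix transcription factors that hold seedlings in the dark-grown form and promote elongation. Light-activated phytochromes bind them and lead to the phosphorylation and breakdown of several of them. Cryptochromes, the blue-light receptors, are known to contact PIF4 and PIF5. PIFs bind E-box variants called the G-box and the PBE-box in the promoters of their targets. PIF genes as targets of PIF proteins and of CRY2 are therefore the places where the family could act on its own genes, which is the question asked of these lists.

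The data were 3 lists of peaks, 7320 for CRY2, 9925 for PIF4 and 3767 for PIF5, each made by the authors from the replicates together. The strength of a peak is the authors' fold enrichment over control, with a median of 2.29 in the CRY2 list, 2.46 in the PIF4 list and 2.40 in the PIF5 list. It was compared only within a list, by rank, where "top 10%" means among the strongest 10% of that list. No value has a spread between replicates, the sources used here give no read depth, and no test between conditions was possible. The gene table has no strand, so the sides of a gene are called left (lower coordinates) and right.

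Of the 7 genes, 6 had a CRY2 peak, 6 a PIF4 peak and 5 a PIF5 peak, and 5 had peaks of all 3 proteins. By the same rule, 46.5% of all genes had a CRY2 peak, 57.4% a PIF4 peak, 27.7% a PIF5 peak and 21.1% peaks of all 3. PIF3, PIF4, PIF5, PIF6 and PIF8 were the genes with all 3 proteins, PIF7 had CRY2 and PIF4, and PIF1 had none. Peaks overlapped the gene body itself at 2 family genes for CRY2, 4 for PIF4 and 2 for PIF5, where 23.5% of all genes had this for CRY2, 30.7% for PIF4 and 11.9% for PIF5. The family genes were longer than the median gene (2933 against 2078 bp), which widens their windows, and the part played by length was not tested. The peaks divided into 9 of CRY2, 15 of PIF4 and 6 of PIF5. Of the 30 summits, 13 lay left of the gene, 6 inside it and 11 right of it.

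**Figure D1:**
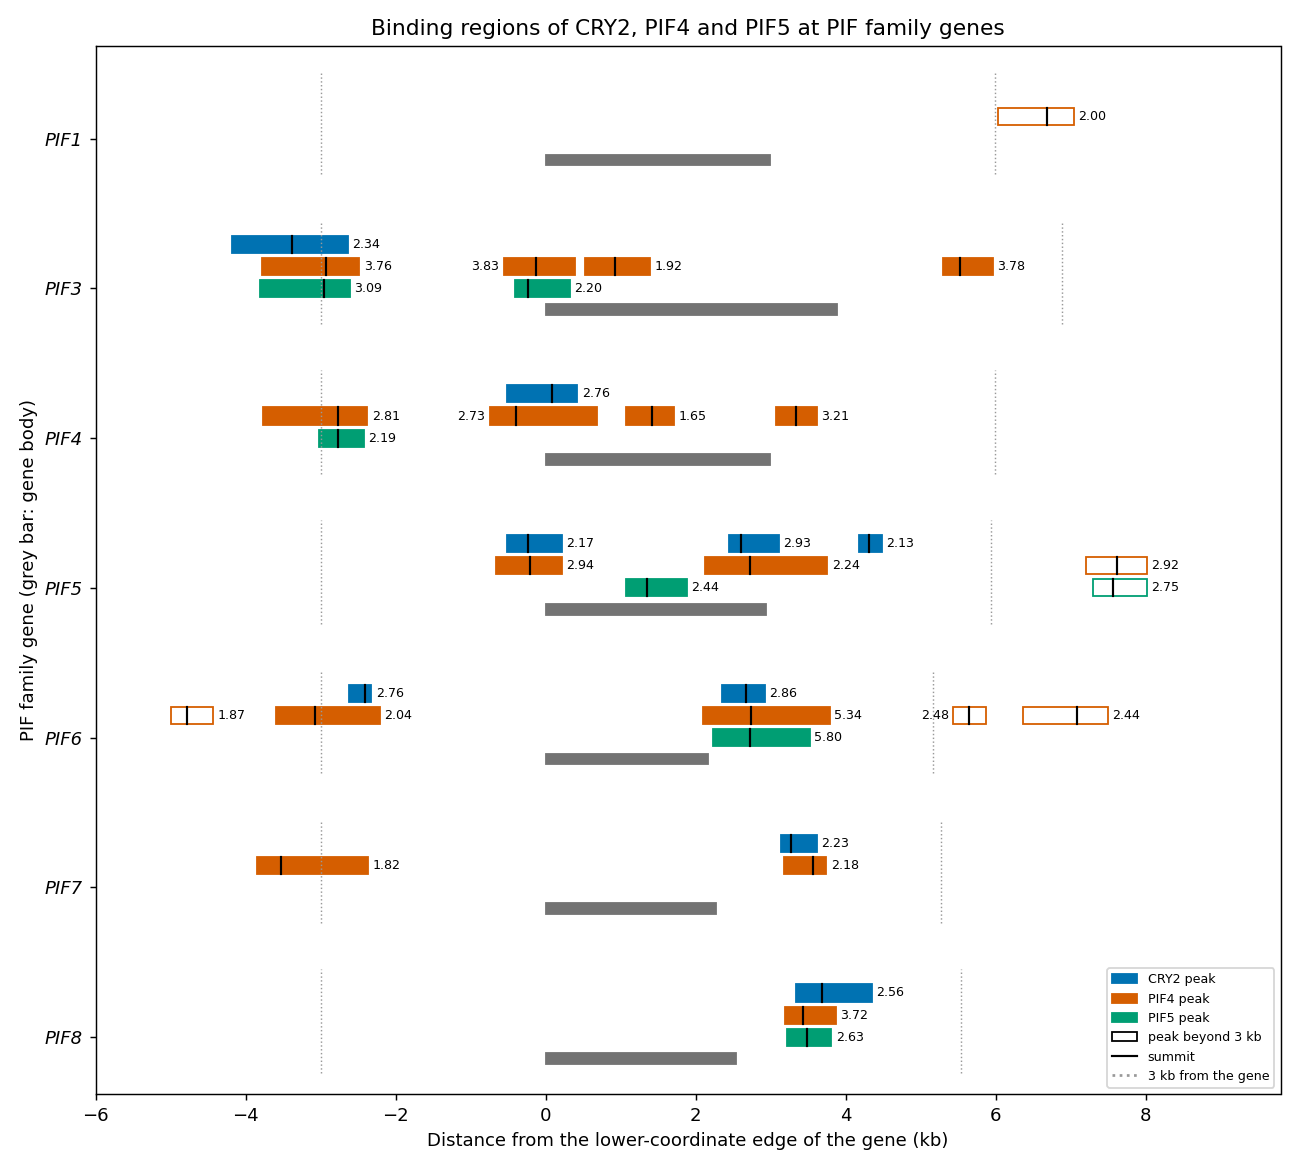
Peaks of CRY2 (blue), PIF4 (orange) and PIF5 (green) at the 7 PIF family genes, by distance in kb from the lower-coordinate edge of each gene (grey bar), with the fold enrichment printed beside each peak and the summit as a black line. Filled peaks lie within 3 kb of the gene and open peaks beyond it, and PIF1 is the gene without a filled peak.

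PIF4, a main driver of hypocotyl elongation in warmth and shade, was bound by CRY2 across its left edge. The CRY2 peak lay at chromosome 2, 17885591 to 17886525, with its summit inside the gene and a fold enrichment of 2.76, in the top 12.5% of the CRY2 list. PIF5 had a single peak there, of 2.19 (chromosome 2, 17883072 to 17883673), whose summit was 2770 bp left of the gene. These peaks come from lines that do not carry the PIF4 transgene. The PIF5 peak was the weakest of the family's 6 PIF5 peaks, and 28.1% of its list was weaker. The PIF4 list, from the line that does carry it, held 4 peaks at this locus. From left to right their fold enrichments were 2.81, 2.73, 1.65 and 3.21. The first had its summit 1 bp from that of the PIF5 peak, the second covered the left edge of the gene under the CRY2 peak, the third lay wholly inside the gene, and the fourth began 89 bp beyond the right edge. The leftmost PIF4 summit and the PIF5 summit were both nearer to NAC042, at 694 and 695 bp, than to the PIF4 gene. NAC042 encodes a NAC transcription factor.

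PIF5, which acts with PIF4 in elongation, had the most CRY2 peaks of the family, 3, a number reached by 4.71% of all genes. Their fold enrichments were 2.17, 2.93 and 2.13. The strongest lay at chromosome 3, 21830352 to 21831011, with its summit inside the gene, and at the top 8.03% of the CRY2 list it was the only CRY2 peak of the family among the strongest 10%. Of the CRY2 peaks here, it alone had PIF5 as the gene nearest its summit. The summit of the 2.13 peak was 144 bp from AT3G59070 and 1383 bp from PIF5. That of the 2.17 peak was 166 bp from PAO3, a neighbouring gene, and 230 bp from PIF5. The PIF4 list had 2 peaks at PIF5, of 2.94 and 2.24. Both PIF4 peaks reached across an edge of the gene, and each overlapped a CRY2 peak. The left pair had summits 20 bp apart, and the right pair 108 bp apart. The left pair stood between PIF5 and its neighbour PAO3, a polyamine oxidase gene, with the PIF4 summit 210 bp from PIF5 and 186 bp from PAO3, so the target of these peaks cannot be told apart from position. The PIF5 list had 1 peak at its own gene, of 2.44 at chromosome 3, 21828978 to 21829785. It lay wholly inside the gene, between the peaks at the gene's edges, and overlapped no CRY2 or PIF4 peak.

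The peaks inside PIF4 and PIF5 from the lines that carry those genes as transgenes had high -log10 p values for their fold enrichment. The inner PIF4 peak, at chromosome 2, 17887172 to 17887811, had the lowest fold enrichment of all 9925 PIF4 peaks, 1.65, but a -log10 p of 19.02. The 100 next-lowest peaks, with fold enrichments of 1.71 to 1.84, had -log10 p values of 13.36 to 17.28, all below it. The inner PIF5 peak had a -log10 p of 25.84, where the 332 PIF5 peaks within 0.05 of its fold enrichment, itself included, had a median of 17.8, and 1 of them was higher. In the PIF5 list 2.26% of peaks stood that high for their fold enrichment. In the CRY2 line, the CRY2 gene had 4 peaks with summits inside it, of 1.99, 2.64, 3.78 and 2.41. Each of the 4 had the highest -log10 p among CRY2 peaks within 0.05 of its fold enrichment, a position held by 0.724% of that list. None of these 6 inner peaks overlapped a peak of another protein. The share of peaks without any such overlap was not counted over the whole lists, only the overlap with each protein. Over the whole lists, 40.7% of PIF4 peaks overlapped a CRY2 peak and 35.1% a PIF5 peak. Of CRY2 peaks, 60.4% overlapped a PIF4 peak and 33.0% a PIF5 peak. Of all PIF5 peaks 96.4% (95% Wilson interval 95.7 to 96.9) overlapped a PIF4 peak, and of the family's 6 PIF5 peaks the inner peak was the only exception. Extra copies of the gene in the line and binding to the endogenous gene cannot be told apart in these lists. The other 3 PIF4 peaks at PIF4 had -log10 p values of 43.88, 42.42 and 64.93, within the range of PIF4 peaks of like fold enrichment, whose medians were 44.2, 41.0 and 61.8.

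**Figure D2:**
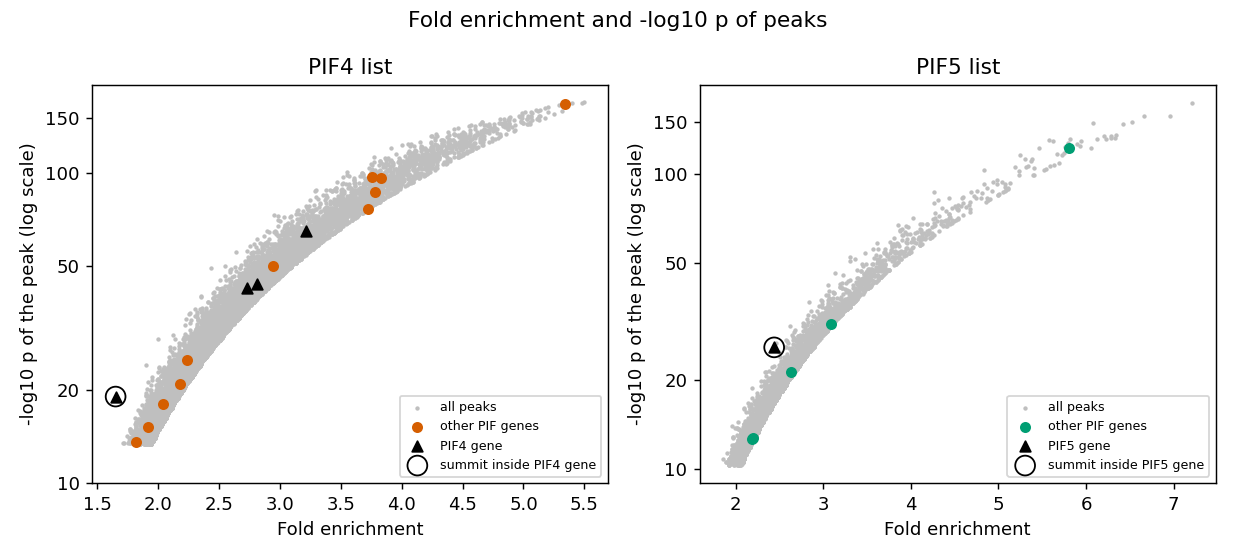
Fold enrichment (horizontal) against -log10 p (vertical, log scale) of every peak in the PIF4 list (left) and the PIF5 list (right), with peaks at the listed protein's own gene as black triangles and those at other PIF family genes in colour. The ringed peaks have summits inside the gene that the line carries. That for PIF4, 1.65 with 19.02, lies above and to the left of the band. That for PIF5, 2.44 with 25.84, lies near the upper edge of peaks of like fold enrichment.

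Without peaks of a list at the locus its own line carries, PIF4 was bound at 5 and PIF5 at 4 of the family genes, and 3 genes had all 3 proteins. These were PIF3, PIF6 and PIF8. The CRY2 line carries neither PIF transgene, and its count of 6 did not depend on this step.

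PIF3, the first member described and a repressor of greening and opening in the dark, had 7 peaks, the most of the family. As many or more were found at 3.59% of all genes, but PIF3 was also the longest family gene, at 3887 bp. Its 4 PIF4 peaks, a number reached by 1.33% of genes and also by the PIF4 gene, had fold enrichments of 3.76, 3.83, 1.92 and 3.78 from left to right. The 3 strong ones lay far left of the gene (chromosome 1, 3071981 to 3073282), across its left edge (3075208 to 3076162) and right of it (3081062 to 3081732). All 3 were in the top 10% of the PIF4 list and spanned 0.07 in fold enrichment. The weak peak lay inside the gene, among the lowest 10% of the list.

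PIF5 did not follow these 3 PIF4 peaks evenly. At the far left peak PIF5 had 3.09, in the top 16.5% of its list, with a summit 20 bp from that of PIF4. Across the left edge it had 2.20, with 28.9% of the list weaker, and a summit 113 bp away. The right peak had no PIF5 peak. Among the 295 PIF4 peaks in the whole list with fold enrichments of 3.7 to 3.9, 273 overlapped a PIF5 peak (92.5%, Wilson interval 88.97 to 95.02), with a median PIF5 fold enrichment of 2.79 and a range of 1.92 to 4.93. PIF3's right peak was among the 22 that did not, and its left-edge peak among the 28 whose PIF5 value was no higher than at that edge. CRY2 overlapped 1 of the 3, the far left peak, where 57.3% of the 295 like PIF4 peaks overlapped a CRY2 peak (Wilson interval 51.6 to 62.8). The CRY2 peak had 2.34, close to its list's median, and its summit was 455 bp from that of PIF4 and 308 bp from the neighbouring gene AT1G09520. The far left PIF4 and PIF5 summits were also nearer to AT1G09520, at 763 and 743 bp, than to PIF3, at 2931 and 2951 bp.

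PIF6, known for a role in seed dormancy, carried the strongest PIF sites of the family. At its right edge PIF4 had a peak of 5.34 (chromosome 3, 22990645 to 22992334), which reached into the gene, and PIF5 a peak of 5.80 (22990778 to 22992066), which began 69 bp beyond it. The PIF4 peak ranked 4 of 9925 and the PIF5 peak 19 of 3767. A PIF4 peak at least as strong lay within 3 kb of 8 genes (0.0292% of all genes) and a PIF5 peak at least as strong within 3 kb of 48 (0.175%), PIF6 included. The 2 summits were 15 bp apart, 582 and 567 bp beyond the gene. A CRY2 peak of 2.86 (22990895 to 22991469) lay under both, wholly within them, with its summit 73 bp from that of PIF4 and 58 bp from that of PIF5. It ranked 736 of 7320, far lower in its list than the PIF peaks in theirs. PIF6 was the nearest protein-coding gene to all 3 summits. On the left, 2214 bp or more from the gene, PIF4 had a weak peak of 2.04 and CRY2 a peak of 2.76 within it, with summits 674 bp apart, and both were nearer to AT3G62080.

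**Figure D3:**
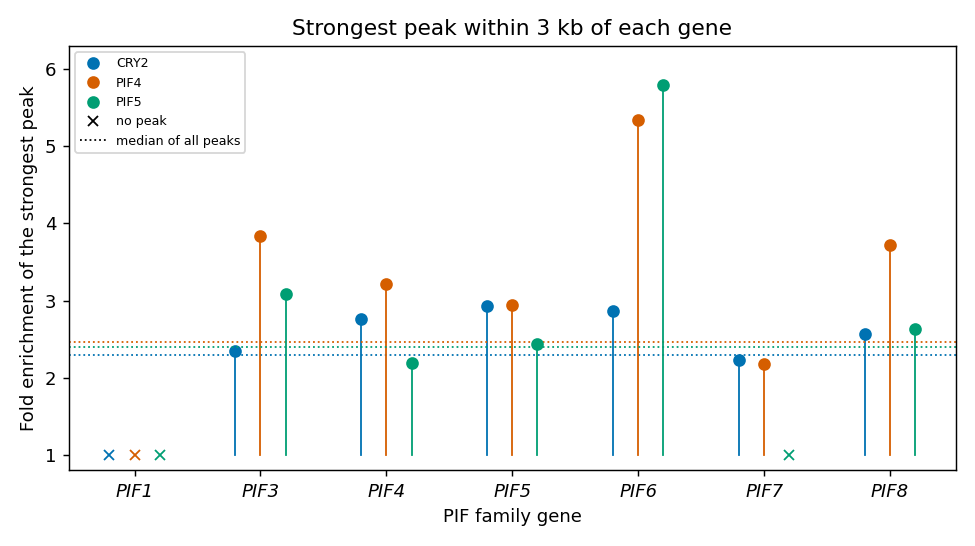
Fold enrichment of the strongest CRY2 (blue), PIF4 (orange) and PIF5 (green) peak within 3 kb of each PIF family gene, with crosses where a list had no peak and dotted lines at the median of each whole list. The PIF4 and PIF5 points at PIF6, 5.34 and 5.80, stand above all others, while CRY2 points span 2.23 to 2.93.

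PIF7, which drives auxin synthesis in shade, was weakly bound. CRY2 had a peak of 2.23 at chromosome 5, 24641633 to 24642108, and PIF4 an overlapping peak of 2.18 at 24641663 to 24642234. Their summits lay 999 and 1290 bp right of the gene and 291 bp apart, and both were below the median of their lists. A second PIF4 peak of 1.82, on the left, was among the weakest of its list (rank 9868 of 9925), and its summit lay inside the neighbouring gene GUS1. The nearest PIF5 peak was 33874 bp away.

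PIF8, named UNE10 in the gene table and known as a repressor of far-red responses, had 1 peak of each protein, all right of the gene in 1 region. PIF4 had 3.72 (chromosome 4, 20825 to 21508), in the top 9.40% of its list, PIF5 had 2.63 (20853 to 21449) and CRY2 2.56 (20973 to 21987). The PIF4 and PIF5 summits were 56 bp apart, and the CRY2 summit lay 256 bp from that of PIF4. All 3 summits were nearer to the next gene, MEE44, at 277, 221 and 21 bp, than to PIF8, at 891, 947 and 1147 bp.

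PIF1, which holds back seed germination and chlorophyll synthesis in the dark, had no peak in any list within 3 kb. No peak of any protein was found for 32.6% of all genes. The nearest PIF4 peak missed the limit by little, at 3051 bp with a fold enrichment of 2.00, and its summit was nearer to CLASP, a gene for a microtubule-associated protein. The next PIF4 peak outside the limit was 3276 bp from PIF6, with 2.48, and the peak least far inside it was the CRY2 peak 2642 bp from PIF3, with 2.34. From PIF1 the nearest CRY2 peak was 11261 bp away and the nearest PIF5 peak 84270 bp away.

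By their strongest peak within 3 kb, PIF6, PIF3 and PIF8 came first for PIF4 and for PIF5, but not for CRY2. These orders rest on the window, as the family gene was nearest to the summit for 16 of the 30 peaks. At PIF8 the strongest peaks of all 3 proteins were nearer to MEE44, and at PIF3 those of PIF5 and CRY2 to AT1G09520. At the PIF4 gene the PIF5 peak was nearer to NAC042, and at the PIF5 gene the strongest PIF4 peak to PAO3. For PIF4 the order was PIF6 (5.34), PIF3 (3.83), PIF8 (3.72), PIF4 (3.21), PIF5 (2.94) and PIF7 (2.18). For PIF5 it was PIF6 (5.80), PIF3 (3.09), PIF8 (2.63), PIF5 (2.44) and PIF4 (2.19). For CRY2 it was PIF5 (2.93), PIF6 (2.86), PIF4 (2.76), PIF8 (2.56), PIF3 (2.34) and PIF7 (2.23). Without a spread between replicates, it is unknown which neighbours in these orders differ. For scale, all genes with a CRY2 peak had a median strongest peak of 2.36, against 2.66 for the bound family genes. The like medians were 2.68 and 3.46 for PIF4, and 2.48 and 2.63 for PIF5. The orders and family medians include values of a list at the locus its own line carries. These are 3.21 for PIF4 at the PIF4 gene and 2.44 for PIF5 at the PIF5 gene. The part played by the transgenes in them was not tested.

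CRY2 peaks at the family mostly overlapped PIF4 peaks, with summits near each other at some genes and far apart at others. Of the 9 CRY2 peaks, 8 overlapped a PIF4 peak, whereas 60.4% of the whole CRY2 list did (Wilson interval 59.3 to 61.5), and the exception was the right-hand peak at PIF5. The summits of the 8 pairs were 20 to 674 bp apart, with a median of 273.5 bp, against 114 bp over the whole lists. Only 2 pairs, at PIF5 and PIF6, were within 100 bp, against 46.1% of such pairs in the whole lists. For PIF4 and PIF5, 4 of 5 pairs, all but the left-edge pair at PIF3, were within 100 bp, against 81.6% over the whole lists. CRY2 overlapped PIF5 at PIF3, PIF6 and PIF8. This was 3 of the 9 CRY2 peaks, against 33.0% of the whole CRY2 list, and 3 of the 6 PIF5 peaks, against 60.0% of the PIF5 list. Merging overlapping peaks gave 17 regions at the family, of which 3 held all 3 proteins (16.7% of the 12738 regions of the whole lists), 5 CRY2 and PIF4 (14.5%) and 2 both PIFs (10.2%). PIF4 alone held 5 (35.7%), CRY2 alone 1 (21.9%) and PIF5 alone 1 (0.393%), the last being the peak inside PIF5.

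**Figure D4:**
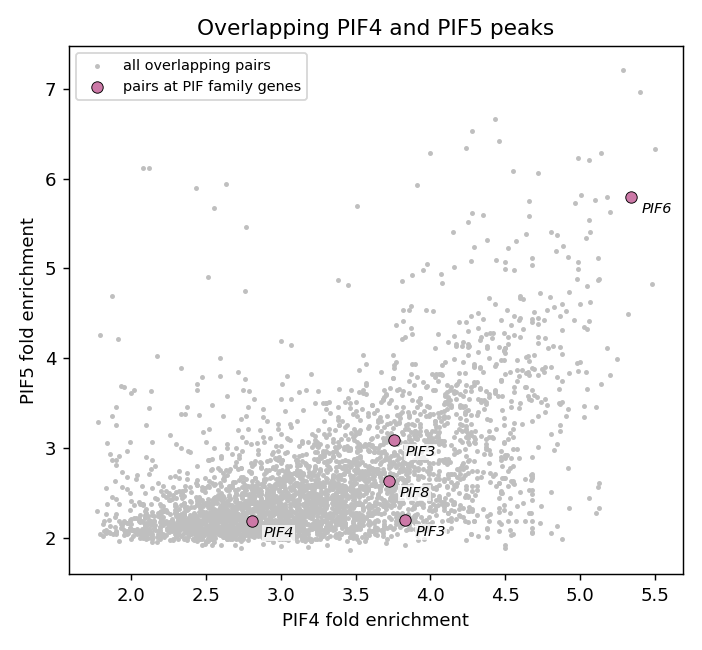
PIF4 fold enrichment (horizontal) against PIF5 fold enrichment (vertical) for all overlapping peaks of the 2 lists (grey) and the 5 pairs at PIF family genes (labelled). The 2 pairs at PIF3 have like PIF4 values, 3.76 and 3.83, and PIF5 values of 3.09 and 2.20, and the pair at PIF6 lies at the upper right.

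The closest relatives of the PIFs in the bHLH family were bound unevenly. Of 8 related genes, 2 had CRY2, 4 PIF4 and 2 PIF5 peaks within 3 kb. None of these counts exceeded the share of all genes (46.5, 57.4 and 27.7%). PIL1 and HFR1, shade-induced genes whose products restrain elongation, had PIF4 peaks of 5.29 and 5.18, close to that at PIF6. Their PIF5 peaks were 7.21 and 5.79. For PIF4, SPT had 2.83 and ALC 2.16, and the 4 other relatives had no peak. Among 7 photoreceptor genes, 4 had CRY2, 6 PIF4 and 4 PIF5 peaks, and PHYC was the gene without any. The CRY2 count of 4 includes the CRY2 gene in the CRY2 line, described above. Among 23 genes whose products are known to act on PIF proteins or PIF genes, 19 had CRY2, 22 PIF4 and 18 PIF5 peaks, and 15 had all 3. They include GAI (CRY2 2.47, PIF4 4.81, PIF5 5.41), a DELLA protein that sequesters PIFs, and LRB1 (2.59, 4.19, 4.40), a ubiquitin ligase subunit that acts on PIF3 and phytochrome B. LUX (3.93, 3.51, 5.69), named PCL1 in the gene table, is part of the evening complex that represses PIF4 and PIF5. These 3 were picked after their values were seen, and others of the 23 differed. ELF3 (CRY2 2.64, PIF4 2.30) and ELF4 (2.67, 2.75) had no PIF5 peak, and DET1 had no peak in any list. The share of all genes given above is the background for these counts too.

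Genes whose strongest peaks were most like those of a family gene were found over the 3 lists, as the distance between ranks within each list in percentile points, among genes bound by all 3 proteins. The closest to PIF3 was AT5G03130, at a distance of 0.903 among 5790 genes, and the closest to PIF6 was AT2G28400 (1.19), with 2.84 for CRY2, 4.66 for PIF4 and 5.58 for PIF5. For PIF4 it was PARC6 (1.22), for PIF5 NTMC2T4 (2.54), and for PIF8 CLE10 (1.36). With 3 values per gene and so many genes compared, such near matches are a description only.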

How the data were processed

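Binding of CRY2, PIF4 and PIF5 was measured by the authors with ChIP-seq in 13 libraries of 6 groups. The submitters' processing notes list MACS2 2.0.10, Bowtie2 2.1.0, CASAVA 1.8.2 and the build TAIR10, but not what each was used for. The 3 deposited lists name their peaks as calls on all replicates, per the files. The authors deposited for each peak a ratio (fold enrichment), a -log10 p, a score (10 times the -log10 p, cut to a whole number) and a summit offset, and no q value. Unused columns of per-sample values numbered 0.

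Peak positions are on TAIR10, counted from 1. Genes came from the RefSeq table of TAIR10.1, whose nuclear chromosomes have the sequence of TAIR10, and all 7 family genes and 38 list genes were matched. It holds neither strand nor sequence, so plans that needed promoters, DNA elements or proteins were not carried out. Overlaps were counted from 1 bp with Python 3.11.15, numpy 2.4.6, pandas 2.3.3 and scipy 1.17.1, and plotted with matplotlib 3.10.9. The window and nearest-gene steps were tested on simulated data, and the other steps were not. Intervals are 95% and cover counting error only. The members and lists were chosen with earlier results of these data known. All 7 genes were named in every list, and list genes in listed order or where a result turned on them. GAI, LRB1, LUX, ELF3, ELF4 and DET1 were picked after their values were seen. The comparisons of fold enrichment with -log10 p, of PIF4 peaks of like strength, and the CRY2 gene in its own line were also chosen after the data were seen. Alternatives covered the window, stricter lists, the overlap rule, the gene assignment and the transgene loci.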

Additional observations from a re-analysis of the deposited data

How the results depend on the processing

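The counts of family genes with CRY2, PIF4 and PIF5 peaks (6, 6 and 5) and with all 3 (5) rested mostly on the window. With the gene body alone they were 2, 4 and 2, with 1 gene, PIF5, holding all 3, where 23.5, 30.7 and 11.9% of all genes had such peaks. With 1 kb they were 5, 6 and 4 (8865, 11431 and 4897 of all 27444 genes), with 3 for all 3 proteins, and with 5 kb, chosen after seeing the data, PIF4 reached 7. When each peak went only to the gene nearest its summit they were 4, 5 and 3 (6054, 7889 and 3258 of all genes), with 2 for all 3. Without the PIF4 and PIF5 loci, which leaves 5 genes, they were 4, 4 and 3, with 3 for all 3. Without peaks of a list at its own transgene locus, also chosen after seeing the data, 3 genes had all 3. With the upper 50% of each list (7627, 9856 and 4335 of all genes), and with lists of equal size (7891, 7920 and 7595), each of these counts changed by at most 1. Over all genes, no count was made with 5 kb. Genes with all 3 proteins were counted over all genes only with the 3 kb window and the whole lists. Overlapping pairs were found at 6 genes for CRY2 and PIF4, 3 for CRY2 and PIF5 and 4 for both PIFs. Genes with such pairs were not counted over all genes, so these counts have no background. At the family genes the pairs depended on the overlap rule. The pairs were found at 5, 1 and 3 genes when the overlap had to cover 50% of both peaks. They were found at 2, 1 and 4 with summits within 100 bp, and at 4, 3 and 3 with the upper 50% of each list. The strongest peak was the same by -log10 p at every gene and list except PIF4 at PIF3, and 2 of 30 peaks changed side of the gene by midpoint. Counts over all genes moved by over 1.5 times in 12 of 15 values, each time lower, and counts over the 38 list genes in 0 of 15. No paired analysis was possible because the lists pool the replicates. The sources used here give no depth, so a gene without a peak may be bound below the limit of detection.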
